A study of Mus musculus with 3 samples.

Results

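The S100 genes of this series are S100a1, S100a4, S100a6, S100a10, S100a11, S100a13, S100a16 and S100b, taken with every array probe set annotated to them. They are 8 genes with 13 probe sets. Of the 8, 7 were among the 9723 genes that could be followed, and the other one, S100a11, is covered by a probe set that the annotation also assigns to other symbols. The family was selected on the measured signals of S100a4, one of the few genes of high signal that stood far above its starting level, so these levels are given as a description. RNA was taken from B16 mouse melanoma cells, an established tumour line of pigment cell origin grown in DMEM with 10% serum, at 0, 2 and 4 h with 1 µg/ml doxorubicin. The drug, an anthracycline, inserts between DNA bases and traps topoisomerase II on DNA. Each time point is 1 Affymetrix Mouse430_2 array, so no group has a replicate, no test was possible and no spread between cultures is known. No untreated culture was sampled at 2 or 4 h, and doxorubicin and time in culture cannot be told apart.

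S100 proteins are small calcium sensors of vertebrates. Each carries a pair of EF-hands, the helix-loop-helix fold that holds a calcium ion, and most work as dimers that open a hydrophobic face on binding calcium and dock onto other proteins, among them annexins, myosin heavy chains and cytoskeletal proteins. Some are also released and act on cell surface receptors such as RAGE, encoded by Ager. S100B protein is a marker of melanocytic tumours, and S100A4, also called metastasin, is known for its link to cell motility and metastasis.

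The values are probe set signals, that is, hybridisation intensities, here scaled so that the trimmed mean of each array is 500. A signal under 100 was set to 100 before a ratio was taken, and probe sets were followed from a geometric mean signal of 200 upwards. Signals of different probe sets depend on the probes and are not compared as amounts. Over all 45101 probe sets the 0, 2 and 4 h arrays had median signals of 154, 136 and 126. The labels name B16 cells in the title and source fields, while the description speaks of macrophages from bone marrow. For the 2 and 4 h arrays the source and description fields give the treatment as ET, which no label spells out. Doxorubicin and its dose are taken here from the titles, the design text and the treatment protocol. Of 10 pigment cell markers, 10, 9 and 9 reached 200 at 0, 2 and 4 h, and the median over the markers was 11907, 8003 and 7756. Tyrp1, a melanosomal enzyme, had 42568, 44083 and 47128. Of 12 macrophage markers, 5, 4 and 4 reached this signal, and the median was 194, 160 and 151. Their summed signal was 4086, 5049 and 5413, of which the lysosomal glycoprotein Cd68 gave 1884, 3044 and 3699. Ptprc, Itgam and C1qa of this list stayed under 100 on each array. Csf1r, Adgre1 and Cd14 of the same list passed the filter described above, at mean log2 signals of 8.77, 8.03 and 7.68. Fibroblast markers reached 200 in 3 of 8 genes on each array, endothelial markers in 1 of 6, and lymphocyte markers in 1 or 2 of 6. Neutrophil markers, which include S100a8 and S100a9, did so in 0, 0 and 1 of 5 at 0, 2 and 4 h. The part of other cell types in the ratios below was not tested, and in RNA of a whole culture fewer cells with a transcript and less of it per cell cannot be told apart. The arrays were washed in fluidics modules 3, 4 and 1, a different one for each time, and the 4 h array in a later run. The module thus cannot be told apart from time at 2 or 4 h, nor the run from the last time point.

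Across the 7 genes followed, S100a4 was 4.43-fold higher at 2 h and 4.93-fold higher at 4 h than at 0 h, S100a6, S100a10, S100a13 and S100a1 were between 1.31-fold and 1.91-fold higher at these times in the probe set that stands for each, S100b was close to its 0 h level in one of its probe sets, and S100a16 was 2.10-fold lower at 4 h. A further S100a10 probe set was 2.14-fold and 2.22-fold higher. Counted by gene at a fixed size of 2-fold, 1 of 7 genes (S100a4) was higher at 2 h, where 1.41% of all genes were, and none was lower, where 5.69% of all genes were. At 4 h, 1 of 7 was at least 2-fold higher (S100a4) against 2.32% of all genes, and 1 of 7 was at least 2-fold lower (S100a16) against 14.4%. Since S100a4 was chosen for its rise, its count carries no weight. From 2 to 4 h no member was 2-fold higher, against 0.843% of all genes, and S100a16 was again the single one that was 2-fold lower, against 5.41%. The median log2 ratio of the 7 genes was 0.54 at 2 h and 0.79 at 4 h, beside -0.01 and -0.07 for all genes. Of the 7, 6 had a log2 ratio above 0 at each time in this scaling, as did 4763 and 4483 of the 9723 genes. The medians and these counts include S100a4, and all genes were not matched to the members in signal, so no shift of the family is read from them.

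**Figure D1:**
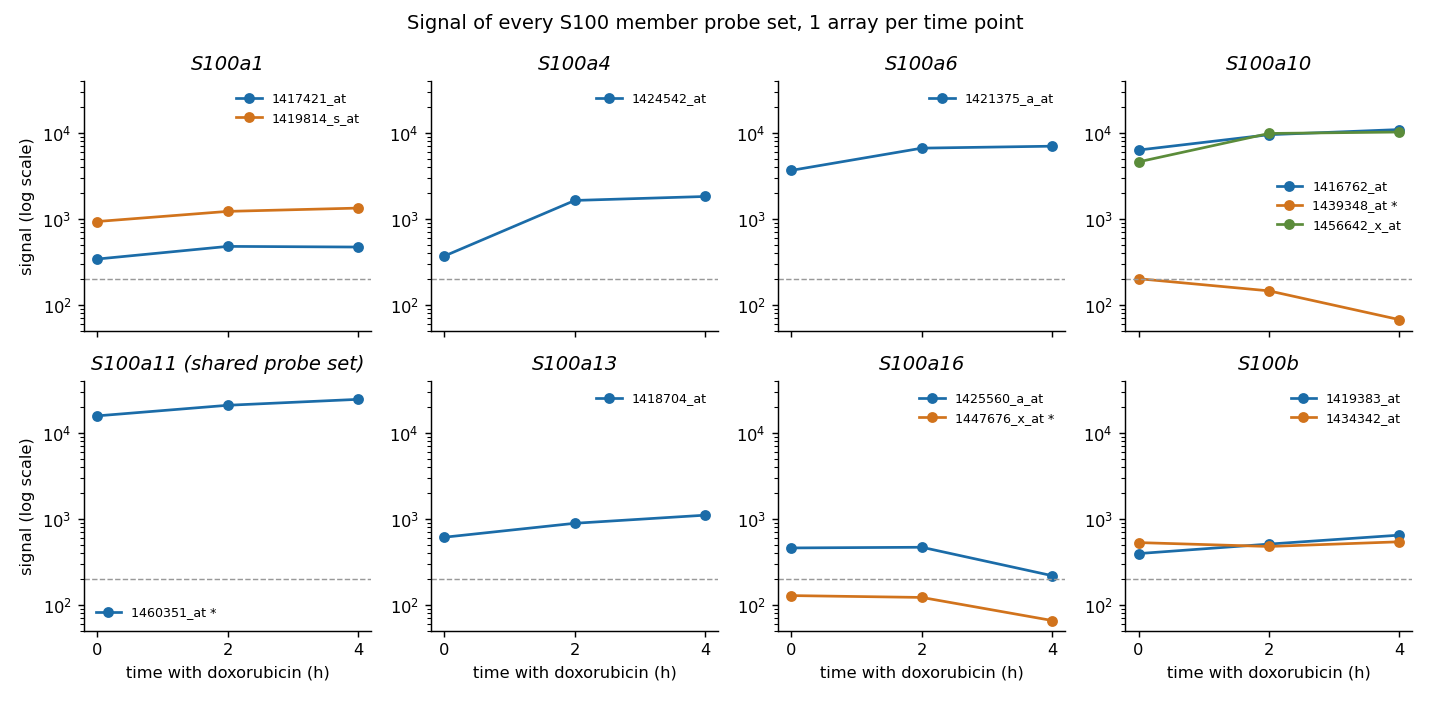
Signal (log scale) against time with doxorubicin for each of the 13 probe sets of the S100 genes, with 1 array per point and the dashed line at the filter of 200. An asterisk marks a probe set that was not followed, because its mean was under the filter or because it is annotated to several genes. S100a4 goes from 369 to 1637 and 1820, and the S100a16 probe sets have their lowest signals at 4 h.

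The ratios of S100 genes depend on how the arrays are scaled. In the main scaling, genes of high signal tend to have ratios above 0, as the plot against all genes shows, so each member was also set beside the 500 genes nearest to it in mean signal. With arrays scaled to equal medians, the middle log2 ratio over all genes lay 0.15 higher at 2 h and 0.31 higher at 4 h than in the main scaling. With quantile normalization it was 0.04 and 0.12 higher, and with scaling to 18 hybridisation spike-in probe sets it shifted by -0.22 and -0.32. The split of all genes at least 2-fold different at 4 h was 226 higher and 1396 lower in the main scaling, 727 and 877 with equal medians, 431 and 991 with quantile normalization, and 65 and 2206 with spike-in scaling. At 2 h it was 137 and 553, against 231 and 371, 233 and 401, and 71 and 917. The precision of a ratio was read from how far probe sets of one gene differ in log2 ratio. This SD between probe sets was 0.40 at 2 h and 0.48 at 4 h over all signals, and it leaves out the spread between cultures and arrays.

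**Figure D2:**
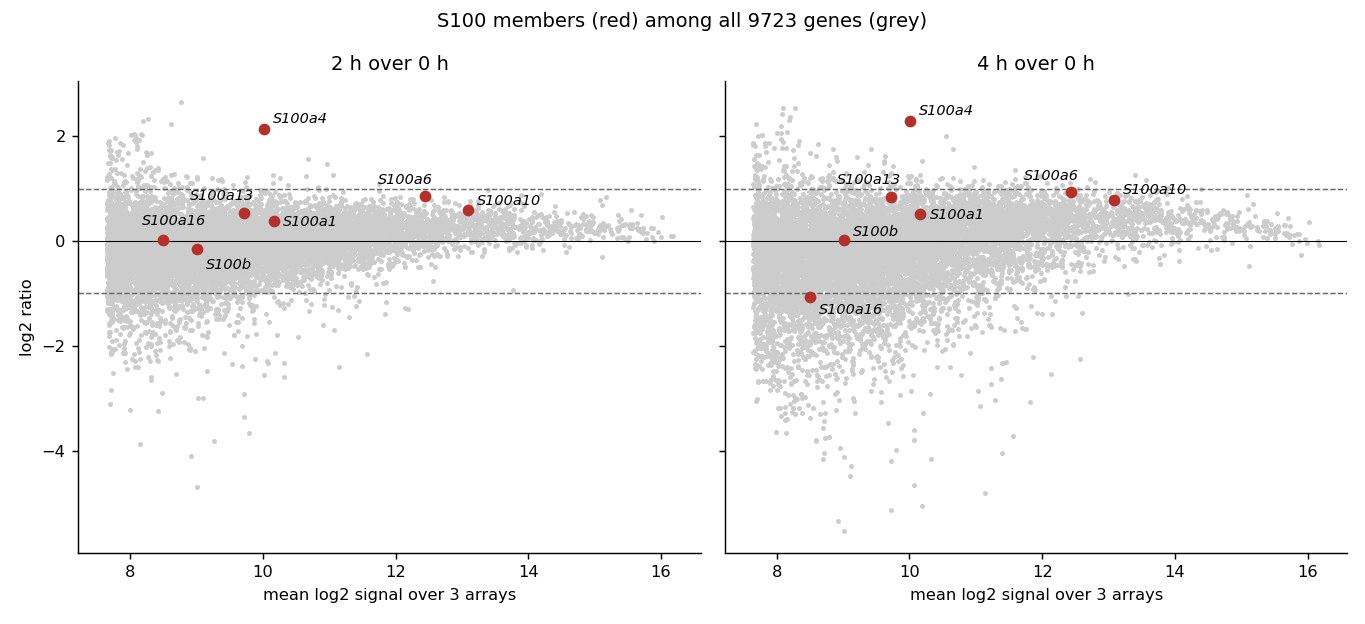
Log2 ratio against mean log2 signal over the 3 arrays for 9723 genes (grey) and the 7 S100 genes followed (red), at 2 h (left) and 4 h (right), with dashed lines at 2-fold. S100a4, selected on its rise, lies at 2.15 and 2.30, and S100a16 at -1.07 at 4 h.

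S100a4, a binding partner of nonmuscle myosin IIA, was measured by 1 probe set, 1424542_at. Its signal of 369 at 0 h was followed by 1637 and 1820 on the treated arrays. Most of the difference was present by 2 h, with log2 ratios of 2.15 at 2 h and 2.30 at 4 h over 0 h and of 0.15 at 4 h over 2 h. The ratio from 2 to 4 h was smaller than the SD between probe sets of one gene at this signal, which was 0.33. The ratio over 0 h ranged from 1.93 to 2.31 at 2 h and from 1.98 to 2.60 at 4 h over all settings tried. No second probe set was at hand to check it.

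At 2 h 4 genes had a higher ratio than S100a4, named here after their values were seen. They were Sema3f, Pgm3, Clic6 and Zfp385a. Pgm3 and Clic6 were under the floor at 0 h. Sema3f had signals of 246, 1543 and 216 in the probe set that stands for it, a log2 ratio of 2.65 at 2 h. It was back near its 0 h level at 4 h, and its probe sets disagreed, with an SD of 2.15 over 2 probe sets at 2 h. At 4 h 5 genes stood higher, namely Pgm3, Wdtc1, Neto1, Clic6 and Atp4b, of which Atp4b was the one above the floor at 0 h, at a signal of 106. Genes at least 4-fold higher with a treated signal of at least 1000 were S100a4 and Sema3f at 2 h and S100a4 and Sh3bgrl at 4 h. These cuts were not part of the rule that named genes. S100a4 was selected for such a rise, so its place here is a description.

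The genes whose pair of ratios lay nearest to that of S100a4 were Atp4b, Slc25a53, Clic6, Limk1 and Vti1a, at Euclidean distances of 0.11, 0.15, 0.17, 0.24 and 0.26 in log2 units over 2 ratios from 3 arrays. All had a signal of at most 110.1 at 0 h and of at most 528 later, and Slc25a53, Clic6 and Vti1a were under the floor at 0 h, so that their ratios are bounds. Limk1, a kinase of cofilin, had signals of 110.1, 456 and 465, a log2 ratio of 2.08 at 4 h. Its probe sets disagreed, with an SD of 1.55 over 2 probe sets.

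The sequence before the annotated start of S100a4 is shown because this gene carries the furthest ratio of the family. Beside it are S100a6, which lies nearby on the same chromosome, and S100a16, which was lower at 4 h. S100a6 had the next ratio by the probe set that stands for each gene, though the S100a10 probe set 1456642_x_at stood higher. RefSeq windows (build GRCm38.p6) were found for 7 of the 8 genes, S100a10 being the exception, and S100a16 has windows for a pair of starts. Each shown window holds the 250 bases before the start, on the + strand, 5′ to 3′. They are chr3:90603520-90603769 for S100a4, chr3:90612644-90612893 for S100a6, and chr3:90537004-90537253 and chr3:90540896-90541145 for S100a16. Capitals mark matches, on either strand, to 5 motifs, and no match overlaps another. The TATA box was searched as TATAAA. The box bound by NF-Y was searched as CCAAT. The box bound by Sp1 was searched as GGGCGG. The AP-1 site was searched as TGANTCA, where N is any base. The E-box was searched as CACGTG.
S100a4: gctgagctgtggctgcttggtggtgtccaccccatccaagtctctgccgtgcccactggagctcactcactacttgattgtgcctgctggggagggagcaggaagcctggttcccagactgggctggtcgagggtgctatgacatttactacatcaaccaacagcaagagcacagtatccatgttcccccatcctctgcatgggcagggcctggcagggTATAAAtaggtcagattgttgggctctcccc
S100a6: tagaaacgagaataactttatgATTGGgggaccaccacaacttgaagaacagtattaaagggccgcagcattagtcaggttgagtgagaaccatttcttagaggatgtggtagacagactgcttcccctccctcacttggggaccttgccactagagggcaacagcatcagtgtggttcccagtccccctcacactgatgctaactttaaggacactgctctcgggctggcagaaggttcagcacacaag
S100a16, start 1: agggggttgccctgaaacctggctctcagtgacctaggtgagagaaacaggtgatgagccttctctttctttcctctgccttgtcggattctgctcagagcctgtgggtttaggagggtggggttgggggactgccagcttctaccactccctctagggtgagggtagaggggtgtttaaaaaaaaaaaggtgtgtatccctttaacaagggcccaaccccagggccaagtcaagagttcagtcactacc
S100a16, start 2: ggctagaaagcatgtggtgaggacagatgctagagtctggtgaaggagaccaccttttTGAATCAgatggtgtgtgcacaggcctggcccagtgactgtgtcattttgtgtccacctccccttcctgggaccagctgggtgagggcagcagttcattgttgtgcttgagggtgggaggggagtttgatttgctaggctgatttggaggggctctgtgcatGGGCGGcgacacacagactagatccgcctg
S100a4 has the TATA box match from 31 to 26 bases before its start, and it is the one of the 7 genes with this match. Among 32851 RefSeq windows of the same length 12.4% held it. S100a6 has 1 NF-Y match on the other strand (33.8% of windows hold one). The first S100a16 window has none of the 5 motifs. The second has 1 match to TGANTCA, with A at N (6.75% of windows hold a match), and 1 Sp1 match (32.7%). S100a11 has 3 Sp1 matches, 2 AP-1 matches and 1 E-box (6.02% of windows), S100b has 2 NF-Y matches, and S100a1 and S100a13, whose starts face away from each other and whose windows share 104 bases, have none. These are matches of letters and show neither binding nor use.

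S100a6 and S100a10, which act with annexins and other partners at membranes, were both higher at 2 and 4 h. S100a6, also called calcyclin, had signals of 3662, 6637 and 6993 in its 1 probe set, 1.81-fold higher at 2 h and 1.91-fold higher at 4 h. The log2 ratios of 0.86 and 0.93 compare with an SD between probe sets of 0.27 and 0.32 at this signal. Of its 500 neighbours in signal, none had a higher ratio at 2 h and 11 did at 4 h, and their median was 0.21 and 0.35. Relative to that median S100a6 stood at 0.65 and 0.58, so part of its ratio is shared with genes of like signal. The ratio at 4 h was 1.24 with equal medians, 0.68 with quantile normalization and 0.61 with spike-in scaling.

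S100a10, the p11 light chain that pairs with annexin A2 and whose EF-hands no longer bind calcium, had 3 probe sets. Those with high signal gave 6306, 9508 and 10918 (1416762_at) and 4595, 9832 and 10214 (1456642_x_at), log2 ratios of 0.59 and 1.10 at 2 h and of 0.79 and 1.15 at 4 h. Both were higher at each time, and they differed from each other by more at 2 h than the usual spread, with an SD of 0.36 over the pair against 0.27. The third, 1439348_at, went the other way, from 201 to 146 at 2 h and to 67.3, under the floor, at 4 h, which is at least 2.01-fold lower. It did not pass the filter and is not counted. Among genes of like signal 28 of 500 had a higher ratio than S100a10 at 2 h and 34 at 4 h, around medians of 0.27 and 0.41.

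Anxa2, the annexin that binds S100a10, had signals of 16848, 19554 and 18858, log2 ratios of 0.21 at 2 h and 0.16 at 4 h. The SD over its 2 probe sets was 0.02 at 2 h and 0.63 at 4 h. In the probe set that stands for each gene, the ratio of Anxa2 was lower than that of S100a10 at both times. The difference was not tested, and the Anxa2 probe sets disagreed at 4 h.

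S100a13 and S100a1 are neighbours on chromosome 3. S100a13, which takes part in the non-classical release of FGF1, had signals of 612, 889 and 1104, 1.45-fold and 1.80-fold higher. By the probe set that stands for each gene, it had the highest ratio of the members from 2 to 4 h. That ratio was 0.31, within the SD between probe sets of 0.33, and the S100b probe set 1419383_at stood higher, at 0.35. At 4 h 17 of 500 genes of like signal stood above the S100a13 log2 ratio of 0.85. Their median was -0.21, which left S100a13 at 1.06 relative to them. The ratio at 4 h was 1.16 with equal medians, 1.08 with quantile normalization and 0.53 with spike-in scaling, so it passed 2-fold in some scalings only. S100a1, best known from heart and skeletal muscle, had signals of 931, 1221 and 1334 in one probe set and of 341, 478 and 470 in the other. The log2 ratios of the pair agreed, at 0.39 and 0.49 at 2 h and at 0.52 and 0.46 at 4 h. These ratios are close to the SD between probe sets (0.35 and 0.43), and with spike-in scaling the value at 4 h was 0.20. Among genes of like signal 74 of 500 had a higher ratio than S100a1 at 2 h and 70 at 4 h, around medians of -0.02 and -0.04.

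S100a16 was the only followed member with a log2 ratio below 0 at 4 h in the main scaling. This widely expressed member had signals of 459, 468 and 218 (1425560_a_at), level at 2 h (log2 ratio 0.03) and 2.10-fold lower at 4 h (-1.07, with an SD between probe sets of 0.53 at this signal). Its other probe set, 1447676_x_at, stayed under the filter with signals of 128, 122 and 65.8 and was at least 1.28-fold lower at 4 h. Both were thus lower between 2 and 4 h and near their starting level before. Of genes of like signal, 392 of 500 had a higher ratio at 4 h, around a median of -0.27 with quartiles of -0.94 and 0.15. The ratio at 4 h was -0.77 with equal medians and -0.75 with quantile normalization, short of 2-fold, and -1.39 with spike-in scaling, and the ratio at 2 h was -0.19 in that scaling.

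S100b, the member on chromosome 10 and a tissue marker of melanocytic and glial cells, had probe sets that disagreed. One gave 530, 478 and 542, and the other 395, 509 and 647. The log2 ratios at 4 h were 0.03 and 0.71, an SD of 0.48 over the pair, and at 2 h -0.15 and 0.37. The probe set that stands for the gene had ratios of 0.33 with equal medians, 0.35 with quantile normalization and -0.29 with spike-in scaling at 4 h, so no direction can be given for it. Among genes of like signal 257 of 500 had a higher ratio than this probe set at 2 h and 150 at 4 h, around medians of -0.14 and -0.32.

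The probe set 1460351_at is annotated to S100a11, to its pseudogene S100a11-ps and to Gm12854. It had signals of 15759, 20919 and 24526, log2 ratios of 0.41 and 0.64. The signal cannot be assigned to one of the 3 symbols, and with quantile normalization the ratios were 0.15 and 0.26.

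**Figure D3:**
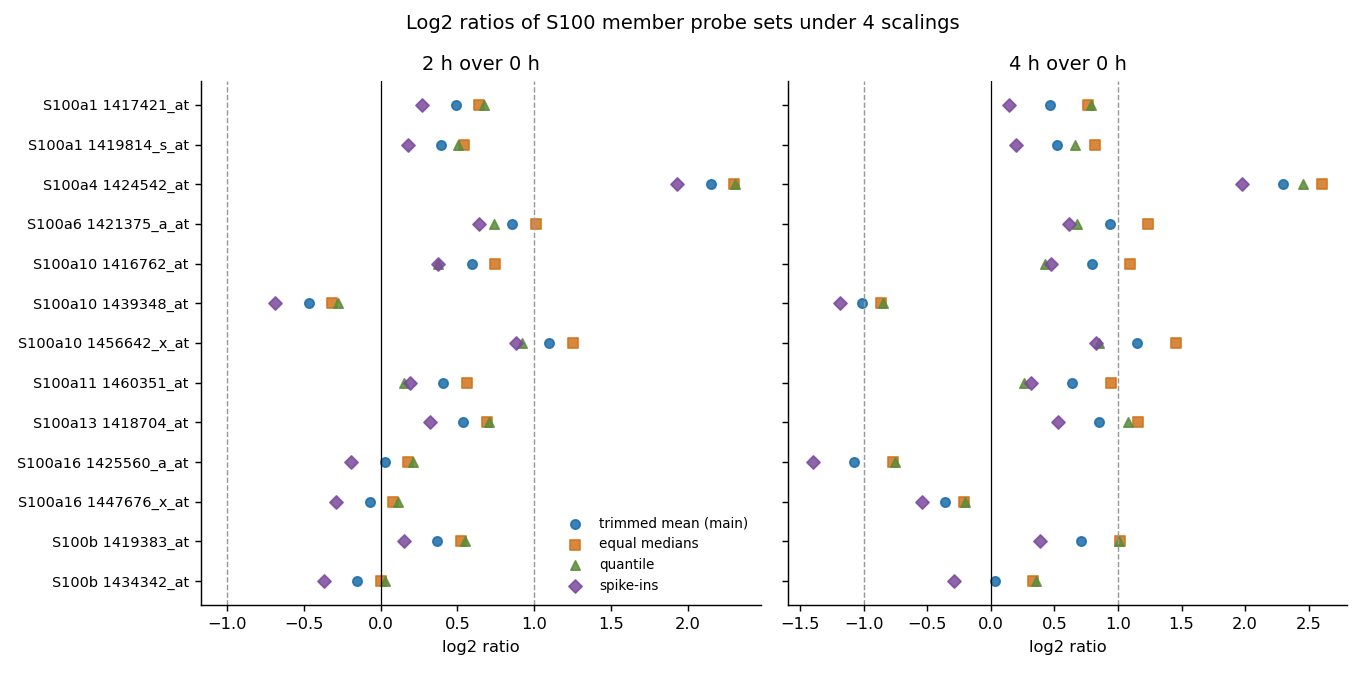
Log2 ratios of the 13 probe sets of S100 genes at 2 h (left) and 4 h (right) over 0 h under 4 scalings (signals under 100 set to 100), with dashed lines at 2-fold. S100a4 lies at 1.93 or more in each scaling, S100a16 lies below 0 at 4 h in each, and the S100b probe set 1434342_at changes sign.

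All members but S100b lie on chromosome 3, where the order of the S100 genes in the RefSeq table runs S100a1, S100a13, S100a14, S100a16, S100a3, S100a2, S100a4, S100a5, S100a6, S100a7a, S100a8, S100a9, S100a7l2 and, beyond a group of skin barrier genes, S100a11 and S100a10. The genes beside S100a4 had other ratios. S100a3, the nearest measured gene on one side, had signals of 190, 170 and 111, under the filter on each array, and S100a5, on the other side, had 225, 211 and 208, a log2 ratio of -0.12 at 4 h. S100a6 is the next gene after S100a5. S100a16 was lower at 4 h, while the nearest followed genes on both sides of it, S100a13 and S100a4, were higher. From S100a1 to S100a10 the table holds 101 genes, of which 49 had a probe set of their own and 17 were followed, 7 of them S100 genes. Of the other 10, 1 was at least 2-fold higher at 2 h and at 4 h, against 1.41% and 2.32% of all genes. At least 2-fold lower were 1 at 2 h, against 5.69%, and 0 at 4 h, against 14.4%. The SD between probe sets in the lowest signal bin, which holds both genes, was 0.56 at 2 h and 0.66 at 4 h. The higher gene was Lce1h, a cornified envelope gene, with signals of 155, 341 and 392. The lower one was Sprr2k, with signals of 339, 156 and 248. Both were chosen after their values were seen.

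Other S100 genes were at or near the background of these arrays. Of 12 further family members 7 had a probe set, and S100a5 was the one that passed the filter. S100a8 and S100a9, the calprotectin subunits of neutrophils and monocytes, had signals of 175, 12.2 and 21.0 and of 16.8, 10.1 and 9.78. S100a14 had 11.7, 102 and 66.7, and S100g and S100a7l2 stayed under 11 on each array. A fold can be given for S100a8 only as a bound, which is at least 1.75-fold lower for both treated arrays.

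Proteins that S100s bind were followed for 26 of 32 listed genes. None was 2-fold higher at 2 or 4 h, against 1.41% and 2.32% of all genes, and 1 was 2-fold lower at each time, against 5.69% and 14.4%. That gene was Mdm2, the ubiquitin ligase of p53, at log2 ratios of -1.60 (2 h) and -2.14 (4 h). The SD over its 2 probe sets was 0.05 and 0.06. Next lowest at 4 h was S100pbp, a nuclear S100-binding protein, with signals of 520, 278 and 322. Anxa1, the annexin that binds S100A11, was highest at 4 h, at 0.69 in log2 ratio (signals of 15277, 17271 and 24680). The actin capping subunit Capza1 followed at 0.69, with an SD of 0.32 over 2 probe sets. The list medians were 0.19 (2 h) and 0.26 (4 h), beside 0.54 and 0.79 for the S100 genes, which include the selected S100a4.

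Myh9, the heavy chain that S100a4 binds, had signals of 15688, 18447 and 17650, log2 ratios of 0.23 at 2 h and 0.17 at 4 h. The SD over its 4 probe sets was 0.13 and 0.11. Cacybp, which binds S100a6 and takes its other name from calcyclin, had 5402, 5394 and 6948, log2 ratios of -0.002 and 0.36. Ager, the receptor RAGE, was under the filter in both of its probe sets, at 9.29, 99.98 and 164 in one and at 8.67, 9.53 and 10.9 in the other. Tlr4, a receptor for secreted S100A8 and S100A9, had signals of 392, 218 and 368, lower at 2 h and near its starting level at 4 h.

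Among other EF-hand genes 22 of 35 were followed. None was 2-fold different at 2 h, where 1.41% of all genes were higher and 5.69% lower. At 4 h 3 were at least 2-fold higher, against 2.32% of all genes, and none was lower, against 14.4%. These counts, like those of the partners, were taken in the main scaling only. Neither list was matched to all genes in signal. The list medians were 0.36 and 0.28. The highest ratios belonged to Nucb2, the nesfatin precursor, with signals of 283, 436 and 861 (log2 ratio 1.60 at 4 h), and to the centrin Cetn3 with 1442, 2290 and 3220 (1.16). The third, named after its values were seen, was the other centrin Cetn2, at 1.10, with an SD of 0.26 over 2 probe sets. From 2 to 4 h the log2 ratios were 0.98 for Nucb2, 0.49 for Cetn3 and 0.73 for Cetn2, beside 0.15 for S100a4 and 0.08 for S100a6. The lowest at 4 h were Lcp1, an actin bundler of leukocytes, at -0.43, and the calcium buffer Pvalb at -0.40, both near the filter. For Lcp1 the SD was 0.46 over 2 probe sets.

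**Figure D4:**
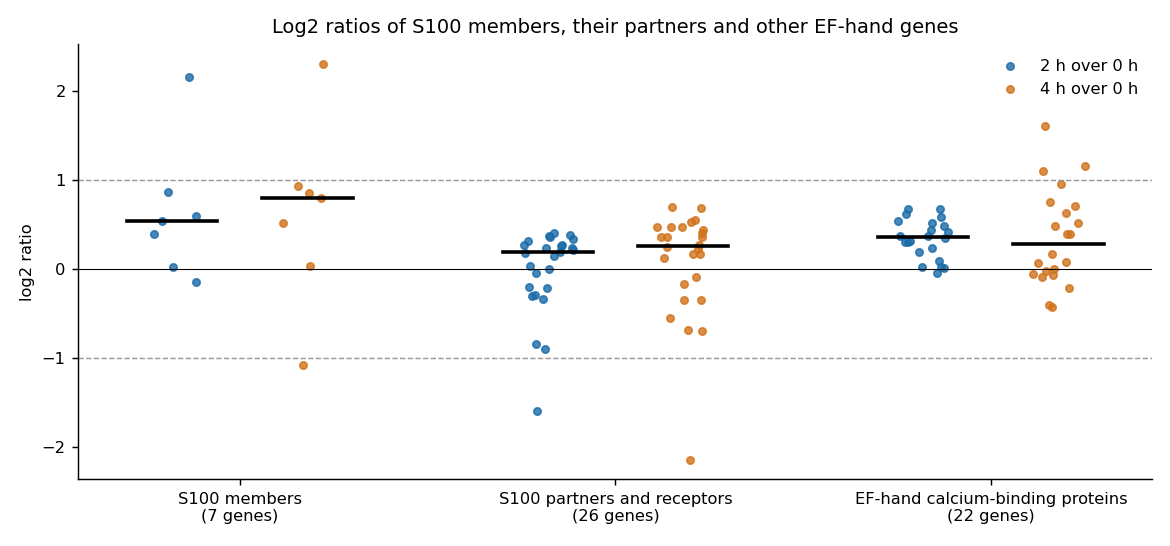
Log2 ratios at 2 h (blue) and 4 h (orange) over 0 h for each followed gene of 3 lists, 7 S100 genes, 26 partners and receptors, and 22 other EF-hand genes, with black bars at the medians and dashed lines at 2-fold. S100a4 is the highest point at both times, Mdm2 is the lowest, and the medians of the S100 genes, S100a4 included, are 0.54 and 0.79.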

How the data were processed

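Intensities of 45101 probe sets on 3 Affymetrix Mouse430_2 arrays were used, deposited by the authors as linear values whose 2% trimmed mean is 150.0 on each array. The submitters' processing notes name GCOS 1.4 and no signal algorithm. The number of arrays limits the precision. Arrays were assigned to times by their titles.

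The deposited intensities were multiplied to a trimmed mean of 500 per array, floored at 100 and log2-transformed. Probe sets with 1 symbol in the platform annotation (34958, of which 34754 were updated by Entrez ID to GRCm38.p6) stood for genes, 932 with several symbols were not assigned, and 9211 had none. A gene took its passing probe set of highest mean log2 signal, which gave 15785 probe sets and 9723 genes. Where an SD over probe sets stands beside a gene's ratio, the ratio is that of this chosen probe set. The SD is taken around the mean of all passing probe sets of the gene. The SD between probe sets used 3905 genes with at least 2, in 4 bins of signal. The counting step was run on simulated data with large planted differences in genes of high signal. That run does not measure how reliable the counts are close to 2-fold or near the floor.

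The S100 genes, lists and alternatives were chosen with earlier results of these data known. The rule named all S100 genes, the 2 highest and 2 lowest partners and EF-hand genes at 4 h, Anxa2, Ager, Myh9 and Cacybp, and the 5 genes nearest to S100a4. Alternatives were the deposited scale, equal medians, quantile normalization, spike-in scaling, floors of 50 and 200, an offset of 50, a filter of 400 or none, averaging within genes, and dropping names that end in _x_at, _s_at or _a_at. Python 3.11.15 with numpy 2.4.6 and pandas 2.3.3 was used.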

Additional observations from a re-analysis of the deposited data

How the results depend on the processing

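S100a4 stayed at least 1.93 in log2 ratio at both times under the 11 alternatives. The count of S100 genes at least 2-fold higher was 1 in the main setting, 2 at 2 h (S100a4 and S100a6) and 4 at 4 h (with S100a10 and S100a13) with equal medians, and 2 at 4 h (S100a4 and S100a13) with quantile normalization. The 1 gene at least 2-fold lower at 4 h, S100a16, became 0 with equal medians, quantile normalization, an offset of 50, a filter of 400 and suffixed probe sets left out. The filter of 400 and the suffix rule remove S100a16, and the suffix rule also removes S100a6. For all genes at 2 h, higher counts were 137 in the main setting, 231 with equal medians, 233 with quantile normalization, 71 with spike-in scaling, 82 with a floor of 200, 343 without a filter and 34 with a filter of 400, and lower counts were 553, and 917 with spike-in scaling, 1027 without a filter and 239 with a filter of 400. At 4 h higher counts were 226, 727 with equal medians, 431 with quantile normalization, 65 with spike-in scaling, 405 without a filter and 116 with a filter of 400, and lower counts were 1396, 877 with equal medians, 2206 with spike-in scaling and 780 with a filter of 400. A floor of 200 also lets every probe set pass the filter. Of the values of single S100 genes other than S100a4, 3 moved by more than the SD between probe sets, namely S100a6 (0.61) and S100a10 (0.47) at 4 h with spike-in scaling and S100a10 (0.42) with quantile normalization. No value past 2-fold changed sign. With 1 array per time no replicate could be left out, and signals near the floor bound what can be said of S100a16, S100a3, S100a8 and Ager. No paired analysis was possible because each group has 1 array and no result comes from a test.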
